A study of Mus musculus with 4 samples.

Results

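Runx2, Sp7, Sp6, Dlx3, Dlx5, Dlx6, Msx1, Msx2 and Alx1 are transcription factors of pre-osteoblasts and of the limb and skull skeleton. They were taken by name from a bulk RNA sequencing count table, and all 9 had a row among its 17230 rows. The libraries hold RNA of stromal cells isolated by flow cytometry from mouse femurs at postnatal day 21. Tamoxifen had been given once, on embryonic day 12.5, to start the Cre label. Hes1-derived cells came from mice of genotype Cxcl12(GFP/+); Hes1(CreER/+); R26R(tdTomato/+), with libraries numbered replicates 1 and 3. Fgfr3-derived cells came from mice of genotype Cxcl12(GFP/+); Fgfr3-iCreER; R26R(tdTomato/+), with libraries numbered replicates 2 and 3. Thus all mice carried GFP at 1 Cxcl12 allele, the mark of CXCL12-abundant reticular (CAR) cells of the marrow, and tdTomato at R26R, a lasting mark of cells in which Cre was active and of their descendants. The CreER of the Hes1-derived mice sits in 1 Hes1 allele, whereas Fgfr3 drives the iCreER of the other mice, so genotype and cell origin cannot be told apart. The sorting gate is GFP with tdTomato by 1 label and tdTomato alone by another. The labels do not say whether a library is 1 animal or a pool, so the p-values measure the spread between these libraries, which may be in part technical. The comparison asks how marrow stroma of fetal perichondrial origin (Hes1-derived) differs from stroma of chondrocyte origin (Fgfr3-derived).

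RUNX2, a runt-domain protein that binds DNA with its partner CBFB, commits mesenchymal cells to the bone lineage, and the zinc finger protein SP7 (osterix) acts downstream of it. DLX and MSX proteins are homeodomain factors that respond to BMP signals in skeletal precursors, where DLX5 favours and MSX2 modulates the expression of osteoblast genes. In marrow, reticular stromal cells carry low levels of bone-lineage regulators and can serve as a source of osteoblasts.

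The promoter windows that RefSeq (build GRCm38.p6) gives for Runx2, Msx1 and Msx2, 3 of the 9 factors, are shown because the table holds windows for these alone among the factors. The window of Mmp13, a known RUNX2 target, is added for comparison. Each runs 5′ to 3′ over 300 bases. Capitals mark the Runx core (TGTGGT, or ACCACA on the other strand) in Runx2 at chr17:44814578-44814877 (minus strand) and Mmp13 at chr9:7272264-7272563 (plus strand). In Msx1 at chr5:37824536-37824835 and Msx2 at chr13:53472731-53473030 (both minus strand) they mark the GC box bound by Sp family proteins (GGGCGG, or CCGCCC).
Runx2: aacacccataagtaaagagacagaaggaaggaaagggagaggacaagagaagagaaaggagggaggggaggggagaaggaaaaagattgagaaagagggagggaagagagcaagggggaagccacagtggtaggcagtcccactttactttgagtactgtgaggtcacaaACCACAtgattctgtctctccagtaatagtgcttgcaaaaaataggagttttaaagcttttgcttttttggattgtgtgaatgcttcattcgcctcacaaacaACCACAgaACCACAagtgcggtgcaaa
Mmp13: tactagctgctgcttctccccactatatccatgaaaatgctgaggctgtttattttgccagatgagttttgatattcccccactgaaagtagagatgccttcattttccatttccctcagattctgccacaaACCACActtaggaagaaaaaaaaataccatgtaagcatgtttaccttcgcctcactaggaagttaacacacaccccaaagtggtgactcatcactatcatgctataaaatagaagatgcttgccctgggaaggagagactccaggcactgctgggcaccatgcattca
Msx1: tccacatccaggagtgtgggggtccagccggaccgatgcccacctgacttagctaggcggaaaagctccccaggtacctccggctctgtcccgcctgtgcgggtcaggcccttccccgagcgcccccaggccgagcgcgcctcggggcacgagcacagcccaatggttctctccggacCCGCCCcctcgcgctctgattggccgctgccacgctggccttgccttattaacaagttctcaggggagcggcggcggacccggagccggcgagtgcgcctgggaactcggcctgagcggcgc
Msx2: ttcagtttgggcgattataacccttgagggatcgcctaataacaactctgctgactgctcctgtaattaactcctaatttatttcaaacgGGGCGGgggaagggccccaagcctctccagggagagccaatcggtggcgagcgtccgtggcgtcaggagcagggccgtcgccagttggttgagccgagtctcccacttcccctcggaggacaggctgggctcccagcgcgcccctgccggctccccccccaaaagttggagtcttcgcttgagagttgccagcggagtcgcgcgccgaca
The Runx2 window held 3 Runx cores, none overlapping another. Of all 32851 promoter windows of this length, 16.8% held at least 1 and 0.183% held at least 3. Mmp13 held 1 Runx core, and Msx1 and Msx2 held none. The GC box occurred once in Msx1 and once in Msx2, against 35.7% of all windows with at least 1, and not in the Runx2 window. The homeodomain core TAATTA occurred once in Msx2 and in 5.29% of all windows. These are matches of letters in a short window and were not measured as binding.

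Depth was similar across the libraries, at 22745128 and 23625327 counted reads in the Hes1-derived and 26025607 and 26804832 in the Fgfr3-derived libraries, and 3 reads stood for 0.115 to 0.132 CPM (reads per 1000000 of the TMM-scaled library). The tdTomato row held 5203 and 2800 reads in Hes1-derived libraries, against 9691 and 13352 reads in Fgfr3-derived libraries, so the lineage label was present in all. Of the CAR cell markers, all 18 were detected. Their summed level was 16670 and 11180 CPM in Hes1-derived libraries, against 24680 and 17860 CPM in Fgfr3-derived libraries, so the groups did not overlap, and 3 of the 18 were called lower. All 12 pan-leukocyte markers were detected as well. Their sum was 5958 and 6789 CPM in Hes1-derived libraries, against 1621 and 3444 CPM in Fgfr3-derived libraries, and 7 of the 12 were called higher by the test used below. The 10 B lymphocyte markers were all called higher, with sums of 2444 and 2276 CPM in Hes1-derived and 338 and 597 CPM in Fgfr3-derived libraries, as were 8 of 9 erythroid markers (8280 and 4670 CPM against 1248 and 1867 CPM). No marker of these lists was at 0 in all libraries. Of all tested genes, 6.56% were called lower and 5.24% higher by the same test. In CPM, 32.1% of them were lower and 29.8% higher in both Hes1-derived libraries than in both Fgfr3-derived libraries. Osteoblast matrix genes summed to 4486 and 4440 CPM in Hes1-derived and 16710 and 22610 CPM in Fgfr3-derived libraries, while 9 chondrocyte markers overlapped between the groups (670 and 2370 CPM against 3915 and 508 CPM). Neutrophil markers summed to 26490 and 31030 CPM in Hes1-derived libraries, against 8665 and 21440 CPM in Fgfr3-derived libraries, though none of the 10 was called. Osteoclast markers summed to 1296 and 1610 CPM in Hes1-derived and 3304 and 3283 CPM in Fgfr3-derived libraries. Of the 7 tested, 1 was called lower and 1 higher, with a median log2 fold change of −0.16, so the list did not fall as a whole. Of 5 pericyte and smooth muscle markers 4 were called lower (median log2 fold change −1.53). Apart from the chondrocyte sums, these levels move with the results below, and their part in them was not tested.

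All 9 factors had lower levels in both Hes1-derived libraries than in both Fgfr3-derived libraries. Across all 14330 tested genes, 32.1% did so. By edgeR's quasi-likelihood test with Benjamini-Hochberg adjustment over all tested genes and a threshold of 0.05, 7 of the 9 fell, namely Runx2, Sp7, Sp6, Dlx3, Dlx5, Msx1 and Alx1, and none rose. The background was 6.56% of tested genes called lower and 5.24% called higher. The median log2 fold change (Hes1-derived minus Fgfr3-derived) was −1.97 over the 9 factors and −0.02 over all tested genes. Alx1 and Msx2 passed the low-count filter through the Fgfr3-derived libraries alone, which favours a lower Hes1-derived level. Without Alx1 and Msx2, 6 of 7 fell and the median was −1.50. In bulk samples, fewer cells of a type and less RNA per cell cannot be told apart.

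**Figure D1:**
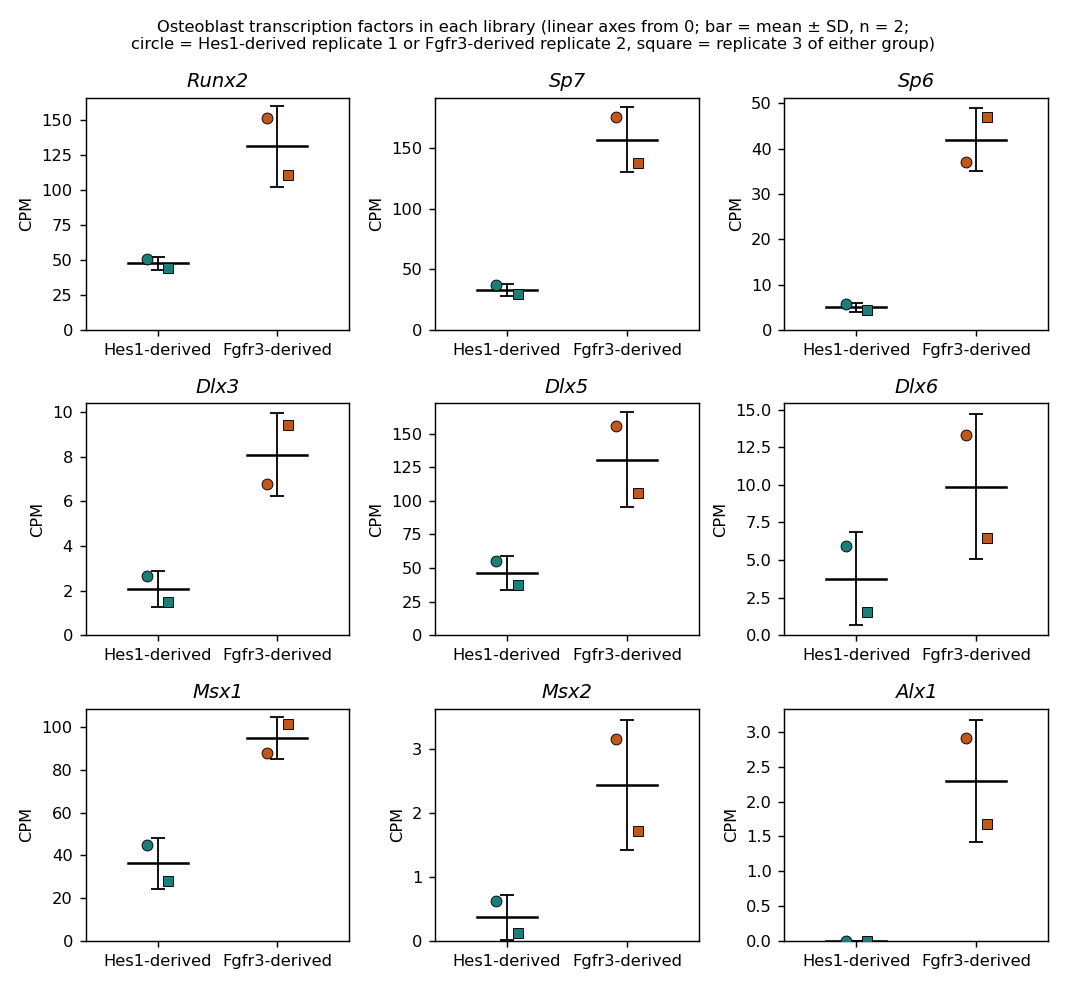
Each panel plots the CPM (linear axis from 0) of 1 factor in the 2 Hes1-derived libraries (left, teal) and the 2 Fgfr3-derived libraries (right, orange), with the mean and SD as bars. In each of the 9 panels both Hes1-derived points lie under both Fgfr3-derived points, and Alx1 is at 0 in both Hes1-derived libraries.

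Runx2 (chr17:44495987-44814797, minus strand, build GRCm38), the regulator at the top of the osteoblast programme, had 50.5 and 44.4 CPM in Hes1-derived replicates 1 and 3, against 151 and 111 CPM in Fgfr3-derived replicates 2 and 3. The Hes1-derived libraries lay close together and far under the lower Fgfr3-derived library. The fall was 2.76-fold (log2 fold change −1.46 ± 0.24 SE, adjusted p = 0.019 by edgeR). GENCODE M21 places an antisense gene, Runx2os1, over 519 of the 8837 exon bases of Runx2, and the labels give no strand setting for the counting, so reads of the pair cannot be told apart. The call ended without Hes1-derived replicate 3 (edgeR adjusted p = 0.070).

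Sp7 (chr15:102356606-102367182, minus strand), the zinc finger factor required for osteoblasts after Runx2, had 36.9 and 29.7 CPM in Hes1-derived libraries, against 176 and 138 CPM in Fgfr3-derived libraries. Every Fgfr3-derived value was well above every Hes1-derived value. The fall was 4.72-fold (−2.24 ± 0.24, edgeR adjusted p = 0.013), and the call held with any single library left out.

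Sp6 (chr11:97013394-97024734, plus strand), known in the mouse as epiprofin for its part in tooth and limb ectoderm, had the most negative log2 fold change among the 7 factors that could pass the filter in either group. It had 5.72 and 4.31 CPM in Hes1-derived libraries, against 37.1 and 46.9 CPM in Fgfr3-derived libraries. That is an 8.38-fold difference (−3.07 ± 0.29, edgeR adjusted p = 0.013), also called with any single library left out. The gene Gm11532 lies on the opposite strand over 3329 of the 3841 exon bases of Sp6. It has no row of its own in the table, so the Sp6 row may hold reads of either.

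Among the distal-less genes, Dlx5 was the most abundant. Dlx5 (chr6:6877805-6882085, minus strand), which favours osteoblast differentiation, had 55.2 and 37.5 CPM in Hes1-derived libraries, against 155 and 106 CPM in Fgfr3-derived libraries. Both pairs of libraries were spread, and the groups stayed apart. The fall was 2.82-fold (−1.50 ± 0.29, edgeR adjusted p = 0.025). Dlx3 (chr11:95120119-95125296, plus strand), a factor of teeth, hair and bone, had 2.64 and 1.49 CPM in Hes1-derived libraries, against 6.78 and 9.40 CPM in Fgfr3-derived libraries. It fell 3.92-fold (−1.97 ± 0.47, edgeR adjusted p = 0.040) on 37 to 246 reads a library.

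Dlx6 (chr6:6863334-6868568, plus strand), the neighbour of Dlx5 with a like role in skeletal development, did not pass the test. Its levels were 5.94 and 1.57 CPM in Hes1-derived libraries, against 13.3 and 6.46 CPM in Fgfr3-derived libraries. The higher Hes1-derived library came close to the lower Fgfr3-derived one, and the log2 fold change was −1.40 ± 0.66 (edgeR adjusted p = 0.21). Without Hes1-derived replicate 1 it was −2.65 and passed (edgeR adjusted p = 0.045). The opposite-strand gene Dlx6os2 covers 104 of its 2375 exon bases.

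Msx1 (chr5:37820485-37824583, minus strand), a homeodomain factor of skeletal and dental mesenchyme, had 44.8 and 27.9 CPM in Hes1-derived libraries, against 88.0 and 102 CPM in Fgfr3-derived libraries. It fell 2.61-fold (−1.38 ± 0.27, edgeR adjusted p = 0.026). Its close relative Msx2 (chr13:53466884-53473074, minus strand), a factor of skull growth, was rare, with 14 and 3 reads in Hes1-derived libraries, against 80 and 45 reads in Fgfr3-derived libraries. In CPM these were 0.616 and 0.121 against 3.15 and 1.72. Msx2 had a log2 fold change of −2.72 ± 0.88 that did not pass (edgeR adjusted p = 0.087), while DESeq2 (adjusted p = 0.036, against 10.9% of genes called lower by DESeq2) and edgeR without Hes1-derived replicate 1 (adjusted p = 0.043) called it. Msx2 entered the test through its Fgfr3-derived reads alone, so no such call counts as support.

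Alx1 (chr10:102998707-103030215, minus strand), a paired-type homeodomain factor of craniofacial mesenchyme, had no read in either Hes1-derived library. The Fgfr3-derived libraries held 74 and 44 reads, or 2.92 and 1.68 CPM. Set against a floor of 3 counts over the Hes1-derived group (0.0631 CPM), Alx1 was at least 36.5-fold lower there. Alx1 entered the test through its Fgfr3-derived reads alone, so its call (edgeR adjusted p = 0.020, and 0.080 without Fgfr3-derived replicate 2) is no support beyond the reads themselves. The floor covers counting error only.

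The other single-library losses touched the moderate falls. Without Hes1-derived replicate 3, 3 factors were called (Sp7, Sp6 and Alx1; background 1.22% of tested genes called lower), and Dlx5, Msx1 and Dlx3 ended at edgeR adjusted p = 0.098, 0.11 and 0.16. Without Fgfr3-derived replicate 2, 3 factors were called (Runx2, Sp7 and Sp6; background 2.05%), with Msx1, Dlx5 and Dlx3 at 0.051, 0.068 and 0.076. Dlx3 was also lost without Fgfr3-derived replicate 3 (0.099), when 6 factors were called (background 6.76%). Without Hes1-derived replicate 1 all 9 were called (background 5.69%). Alx1 and Msx2 are counted in these fits, though they entered the main test through their Fgfr3-derived reads alone, so their calls are no support. Each such fit leaves a group with 1 library, which is assumed to vary like the others. On the regularized log2 scale that the authors deposited, which draws low counts together, the differences ran from −2.11 for Sp6 to −0.58 for Msx2, with Sp7 at −1.71.

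Levels were set side by side per kilobase of exon (GENCODE M21). In Hes1-derived libraries Dlx5 led with 20.5 CPM per kilobase, then Msx1 (11.7), Sp7 (9.80), Runx2 (5.37), Dlx6 (1.58), Sp6 (1.31), Dlx3 (0.792) and Msx2 (0.112). In Fgfr3-derived libraries the order was Dlx5 (57.7), Sp7 (46.3), Msx1 (30.6), Runx2 (14.8), Sp6 (10.9), Dlx6 (4.16), Dlx3 (3.10), Msx2 (0.743) and Alx1 (0.400). Sp7 was under Msx1 in Hes1-derived replicate 1 (10.9 against 14.5) and just under it in replicate 3 (8.75 against 9.0). In Hes1-derived replicate 3 Sp7 had more reads than Msx1 (738 against 692), so that order rests on the exon lengths. Sp7 was above Msx1 in both Fgfr3-derived libraries (51.8 against 28.4 in replicate 2 and 40.7 against 32.8 in replicate 3). The ranges of the 2 libraries overlapped between Msx1 and Sp7 and among Dlx6, Sp6 and Dlx3 in the Hes1-derived group, except Sp6 and Dlx3, which did not. They also overlapped between Dlx5 and Sp7 and between Dlx6 and Dlx3 in the Fgfr3-derived group. These ranges do not use that the genes share libraries. Within libraries, Dlx5 was above Sp7 in both Fgfr3-derived libraries (68.7 against 51.8 and 46.7 against 40.7). Dlx6 was above Dlx3 in both Hes1-derived libraries. The order of Dlx6 changed between libraries against Sp6 in the Hes1-derived group and against Dlx3 in the Fgfr3-derived group. With 2 libraries a group, these orders are given as description. The exon lengths assume the annotation of GENCODE, while that of the counting is not given in the sources used here.

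The balance among the factors was compared by the reads of 1 factor per 100 reads of another in the same library, which no scaling of the libraries can change. Sp7 had 72.9 reads per 100 Runx2 reads (95% exact binomial interval 66.6 to 79.8) in Hes1-derived replicate 1 and 67.0 (61.0 to 73.6) in replicate 3. In Fgfr3-derived replicates 2 and 3 it had 117 (112 to 122) and 125 (119 to 131). The ratio was lower in both Hes1-derived libraries than in both Fgfr3-derived libraries, beyond counting error. Being per read and not per length, it compares the groups and not the levels of the genes. Sp6 per 100 Runx2 reads was 11.3 and 9.72 in Hes1-derived libraries and 24.5 and 42.4 in Fgfr3-derived libraries, again with no overlap. Per 100 Sp7 reads, Sp6 had 15.5 and 14.5 in Hes1-derived libraries and 21.1 and 33.9 in Fgfr3-derived libraries, with no overlap either. With 2 libraries against 2, the smallest exact two-sided permutation p is 0.333, so such ratios are given as description.

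The ratios of Dlx5 and Msx1 to Runx2, and of Dlx6 and Dlx3 to Dlx5, overlapped between the groups. Dlx5 per 100 Runx2 reads was 109 and 84.5 in Hes1-derived libraries and 103 and 95.7 in Fgfr3-derived libraries. Msx1 per 100 Runx2 reads was 88.6 and 62.9 against 58.2 and 92.0. Under TMM scaling the log2 fold changes of Runx2, Dlx5 and Msx1 lay between −1.50 and −1.38. Dlx6 per 100 Dlx5 reads was 10.8 and 4.19 in Hes1-derived libraries and 8.55 and 6.11 in Fgfr3-derived libraries, and Dlx3 per 100 Dlx5 reads was 4.78 and 3.98 against 4.36 and 8.89. Msx2 per 100 Msx1 reads was lower in both Hes1-derived libraries (1.38 and 0.434) than in both Fgfr3-derived libraries (3.58 and 1.69). However, the 95% intervals of Hes1-derived replicate 1 (0.749 to 2.32) and Fgfr3-derived replicate 3 (1.23 to 2.27) overlapped.

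**Figure D2:**
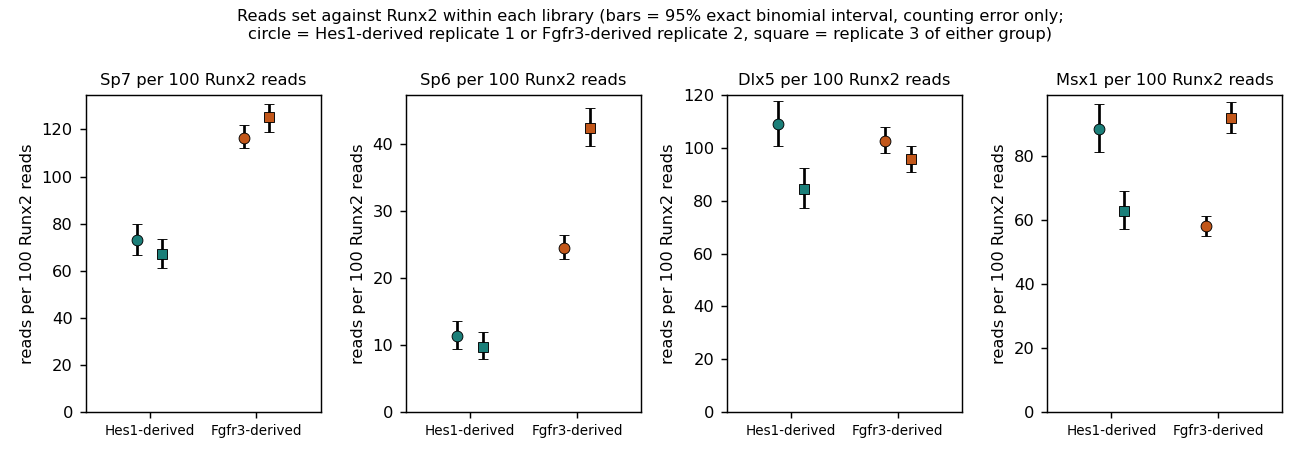
Each panel plots the reads of Sp7, Sp6, Dlx5 or Msx1 per 100 Runx2 reads (linear axis from 0) in every library, Hes1-derived at left and Fgfr3-derived at right, with 95% exact binomial intervals that cover counting error only. Sp7 lies at 72.9 and 67.0 in Hes1-derived libraries and at 117 and 125 in Fgfr3-derived libraries, while the Dlx5 and Msx1 points of the groups overlap.

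The factors were next set against eGFP, the reporter at the Cxcl12 locus, and against Cxcl12 itself, as measures of the stroma in each library. The eGFP row held 6669 and 3204 CPM in Hes1-derived libraries, against 9264 and 6754 CPM in Fgfr3-derived libraries, and Cxcl12 held 7057 and 4180 CPM against 9764 and 7028 CPM. Hes1-derived replicate 1 was close to Fgfr3-derived replicate 3 in both rows, and the groups overlapped for Cxcl12. Neither row passed the test under TMM scaling (eGFP −0.70 ± 0.45, edgeR adjusted p = 0.35; Cxcl12 −0.58 ± 0.41, edgeR adjusted p = 0.40). Reads of eGFP per 100 Cxcl12 reads were 94.5 and 76.7 in Hes1-derived libraries and 94.9 and 96.1 in Fgfr3-derived libraries. With eGFP or Cxcl12 reads as library size, the median of all tested genes moved to 0.83 and 0.62 on the log2 scale, and differences are to be read against those medians.

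Per 1000 eGFP reads, all 9 factors were lower in both Hes1-derived libraries than in both Fgfr3-derived libraries, against 8.0% of tested genes. Per 1000 Cxcl12 reads all 9 were too, against 11.3% of tested genes. Alx1 and Msx2 passed the filter through their Fgfr3-derived reads alone, so these shares are to be read for the other 7 factors. All of those were lower in both Hes1-derived libraries on both scales. Runx2 had 7.58 and 13.8 reads per 1000 eGFP reads in Hes1-derived libraries, and 16.3 and 16.4 in Fgfr3-derived libraries, so Hes1-derived replicate 3 came near the other group. Sp7 had 5.53 and 9.28 against 19.0 and 20.5, and Sp6 had 0.857 and 1.35 against 4.01 and 6.95. For Sp7 the gap between the groups exceeded the spread within either, while for Sp6 it was about as wide as the spread of the Fgfr3-derived pair. Per 1000 Cxcl12 reads, Runx2 had 7.16 and 10.6 against 15.5 and 15.7, Sp7 had 5.22 and 7.12 against 18 and 19.7, and Sp6 had 0.810 and 1.03 against 3.80 and 6.67.

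The test on these scales passed fewer of the factors. Relative to eGFP, only Alx1 was called lower (edgeR adjusted p = 0.013), at least 21.7-fold by its floor, and none was called higher, against 0.133% of tested genes called lower. Since Alx1 and Msx2 entered the test through their Fgfr3-derived reads alone, the count that can be read is 0 of the other 7 factors. Sp6 had a log2 fold change of −2.32 ± 0.77 (edgeR adjusted p = 0.071), Sp7 of −1.42 ± 0.75 (0.31) and Runx2 of −0.61 ± 0.74 (0.61). Sp6 passed relative to eGFP with DESeq2 (adjusted p = 0.0058, background 0.433% called lower), with limma-voom (adjusted p = 0.024, background 0.656%) and without Hes1-derived replicate 1 or 3 (edgeR adjusted p = 0.014 and 0.0083). Relative to Cxcl12, Sp6 (−2.51 ± 0.62, edgeR adjusted p = 0.0045) and Alx1 (edgeR adjusted p = 0.0013; at least 23.7-fold lower) were called lower, against 0.684% of tested genes. Without Alx1 and Msx2 this was 1 of 7. Sp7 stood at −1.61 ± 0.60 (edgeR adjusted p = 0.078), below the threshold with DESeq2 (adjusted p = 0.0099, background 1.14%) and limma-voom (adjusted p = 0.038, background 1.26%). Runx2 was at −0.81 ± 0.59 (edgeR adjusted p = 0.42). When either Fgfr3-derived library was left out, none of the 9 factors and no tested gene at all was called lower relative to eGFP or to Cxcl12.

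The remaining factors did not pass on either scale. Relative to eGFP the log2 fold changes were −1.30 ± 0.83 for Dlx3, −0.70 ± 0.74 for Dlx5, −0.79 ± 0.79 for Dlx6, −0.67 ± 0.73 for Msx1 and −2.13 ± 1.12 for Msx2. Relative to Cxcl12 they ran from −2.23 for Msx2 to −0.85 for Msx1. The standard error of Runx2 was 0.74 relative to eGFP, against 0.24 under TMM scaling, so these misses do not show equal levels per stromal read. The summed reads of the CAR cell markers were also used as library size (median of all tested genes 0.61). Sp7, Sp6 and Alx1 were then called lower, against 1.38% of tested genes. Since Alx1 entered the test through its Fgfr3-derived reads alone, only the calls of Sp7 and Sp6 can be read. Runx2 stood at −0.82 (edgeR adjusted p = 0.29), Dlx5 at −0.88 (0.25), Msx1 at −0.84 (0.27) and Dlx3 at −1.45 (0.12).

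**Figure D3:**
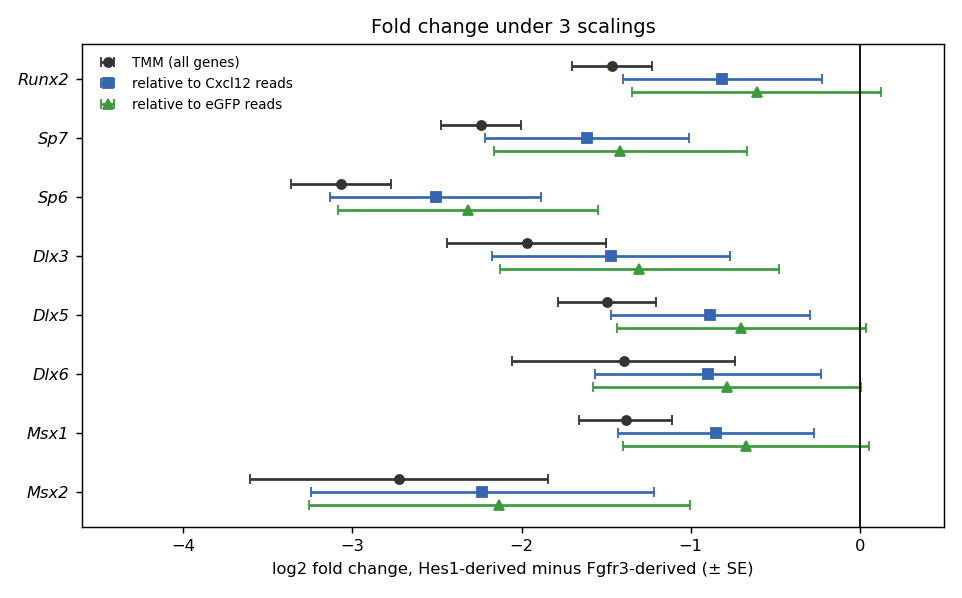
Points give the log2 fold change (Hes1-derived minus Fgfr3-derived, ± SE) of 8 factors under TMM scaling (circles), relative to Cxcl12 reads (squares) and relative to eGFP reads (triangles). Alx1 is left out because its fitted value against 0 reads is no estimate of size. All points are under 0, and those of Sp6 and Sp7 lie furthest left among the factors with over 100 reads in every library.

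Relatives in the same gene families were measured beside the factors. Of 18 listed relatives 14 had a row and 12 were tested, of which Prrx1 fell and none rose, against 6.56% and 5.24% of all tested genes, so 1 call is near the background. The relatives had a median log2 fold change of −0.84 against −0.02 for all tested genes. Prrx1, a homeodomain gene of limb mesenchyme, had 57.6 and 36.6 CPM in Hes1-derived libraries, against 149 and 115 CPM in Fgfr3-derived libraries (−1.49 ± 0.28, edgeR adjusted p = 0.024). It lost the call without Hes1-derived replicate 3 or Fgfr3-derived replicate 2. Runx1, the runt-domain factor of blood stem cells that stroma also expresses, had 145 and 135 CPM against 308 and 207 CPM (−0.88 ± 0.25, edgeR adjusted p = 0.064). DESeq2 called it (adjusted p = 0.015), as did edgeR without Fgfr3-derived replicate 3 (adjusted p = 0.024). Runx1 had 288 and 303 reads per 100 Runx2 reads in Hes1-derived libraries and 204 and 187 in Fgfr3-derived libraries, with no overlap.

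Runx3, a runt-domain factor of lymphocytes and cartilage, stood at −0.79 ± 0.27 (edgeR adjusted p = 0.096), and Cbfb, the shared DNA-binding partner of all RUNX proteins, at −0.20 ± 0.22 with overlapping groups (110 and 138 CPM against 154 and 131 CPM). Alx4 (−1.42 ± 0.48), Dlx4 (−1.57 ± 0.69) and Prrx2 (−1.04 ± 0.42) did not pass. The broadly expressed Sp1 (−0.08 ± 0.27), Sp2 (0.50 ± 0.21), Sp3 (0.30 ± 0.26) and Sp4 (0.57 ± 0.36) did not pass either, and Sp2 and Sp4 had higher levels in both Hes1-derived libraries. Dlx1 had 38 reads in Hes1-derived replicate 3 and at most 1 read in each other library, and Dlx2 had 24 and 3 reads in Fgfr3-derived libraries, against 1 and 0 in Hes1-derived libraries. Both were under the filter.

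Partners and regulators of these factors were listed as cofactors, repressors, upstream mediators and degraders. Of 49 tested, 12 fell and none rose (median −0.71), against 6.56% and 5.24% of all tested genes. Vdr, the vitamin D receptor, had 49.3 and 52.6 CPM in Hes1-derived libraries, against 191 and 218 CPM in Fgfr3-derived libraries (−2.0 ± 0.20, edgeR adjusted p = 0.013). The Notch target Hey1, a repressor that binds RUNX2, had 50.2 and 33.3 CPM against 232 and 168 CPM (−2.26 ± 0.29, edgeR adjusted p = 0.015). Id4, an inhibitor of helix-loop-helix proteins, stood at −1.76 ± 0.26 (edgeR adjusted p = 0.016). Of 12 called, activators and repressors were both present, since Hey1, Twist1, Smurf1 and Smurf2 restrain RUNX2 or its protein level. Leaving out Hes1-derived replicate 3 cut the 12 calls to 4 (background 1.22%), and leaving out Fgfr3-derived replicate 2 cut them to 7 (background 2.05%). None was lower relative to eGFP (median 0.22) or Cxcl12 (median 0.02).

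Zbtb16, a zinc finger factor placed upstream of RUNX2 in human mesenchymal cells and also expressed by lymphoid cells, had 8.71 and 13 CPM in Hes1-derived libraries, against 5.01 and 1.61 CPM in Fgfr3-derived libraries (1.72 ± 0.57, edgeR adjusted p = 0.093). Relative to eGFP it rose (log2 fold change 2.78, edgeR adjusted p = 0.040), as it did relative to Cxcl12 (2.54, edgeR adjusted p = 0.0081), against 2.26% and 6.48% of tested genes called higher. On both scales the call was lost without Hes1-derived replicate 3 and without either Fgfr3-derived library.

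Of the listed genes known to be bound or raised by RUNX2 or SP7, 30 had a row. Of 28 tested, 13 fell and none rose, against 6.56% and 5.24% of all tested genes, with a median of −1.35. The list holds all the osteoblast matrix genes summed above, as well as the osteoclast marker Mmp9, so these are not separate observations. The bone matrix gene Spp1 had 578 and 454 CPM in Hes1-derived libraries, against 6382 and 7193 CPM in Fgfr3-derived libraries (−3.72 ± 0.36, edgeR adjusted p = 0.013). The collagenase gene Mmp13, whose promoter is printed above, had 1129 and 1052 CPM against 12120 and 11995 CPM (−3.47 ± 0.37, edgeR adjusted p = 0.013). Both log2 fold changes were beyond those of Runx2 and Sp7 and within 2 SE of that of Sp6. Spp1 and Mmp13 were the 2 targets that also fell relative to eGFP (edgeR adjusted p = 0.024 and 0.0398) and to Cxcl12 (0.0005 and 0.0013). Enpp1, which makes pyrophosphate, stood at −2.03 ± 0.22, and Tnfsf11, the osteoclast factor RANKL, at −1.77 ± 0.25 (edgeR adjusted p = 0.013 and 0.016). Without Hes1-derived replicate 3 the 13 calls became 5 while the background fell to 1.22%, and with DESeq2 they became 22 while it was 10.9%.

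**Figure D4:**
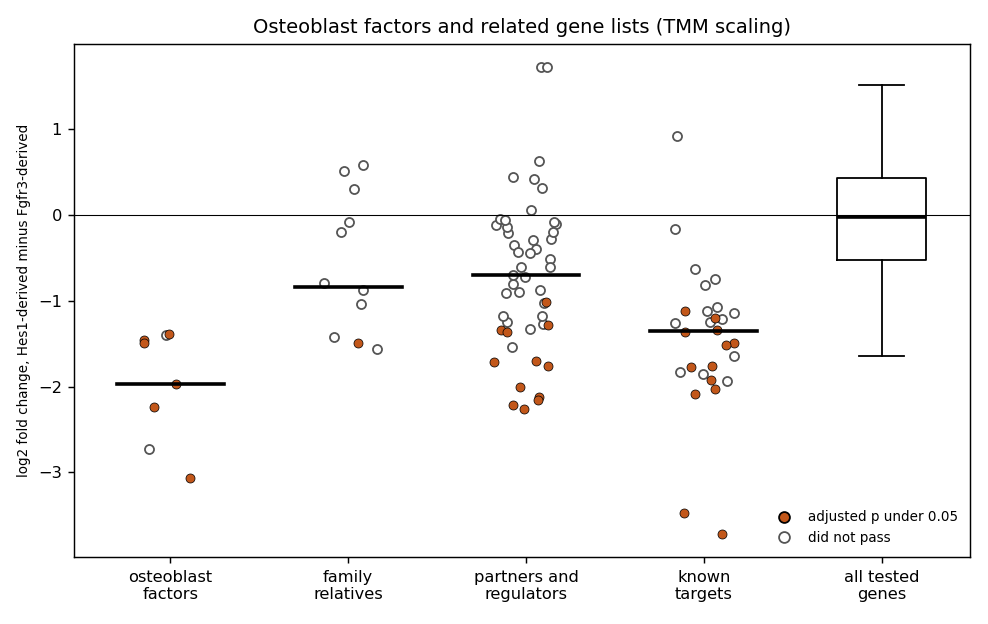
Dots give the log2 fold change (Hes1-derived minus Fgfr3-derived, TMM scaling) of each tested gene in the 9 osteoblast factors and in the lists of relatives, partners and targets, filled where the adjusted p was under 0.05. Lines mark list medians of −1.97, −0.84, −0.71 and −1.35, and the box at right shows all 14330 tested genes (quartiles −0.53 and 0.43, whiskers at the 5th and 95th percentiles). Genes at 0 reads in both Hes1-derived libraries, such as Alx1, are not drawn but count in the medians.

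The genes whose log2 CPM profile over the 4 libraries came closest to that of Runx2 were Bmpr1a, a BMP receptor (root mean square difference 0.0284 after centring), Vash2 (0.0379) and Jam3, a junctional adhesion molecule (0.0424), among 10204 candidates. Bmpr1a had 26.8 and 23.8 CPM in Hes1-derived libraries, against 80.0 and 61.6 CPM in Fgfr3-derived libraries. Closest to Sp7 were Timp3, an inhibitor of metalloproteinases (0.0715), Serpina3h (0.0797) and Abcc9 (0.0835). Timp3 had 65.2 and 50.4 CPM against 273 and 220 CPM. With only 4 libraries, which share depth and scaling within each, such likeness is a description.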

How the data were processed

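Bulk RNA was sequenced in 2 Hes1-derived and 2 Fgfr3-derived libraries, amplified with a SMARTer kit, per the series' design text in the labels. Upstream tools, per the submitters' processing notes, were HTSeq, DESeq2, Cuffdiff, Cufflinks, Bowtie2 2.2.1, TopHat2 2.0.13 and FastQC, on build mm10. The annotation and strand setting are not given in the sources used here. The deposited counts are whole reads per gene symbol. The deposited signal is the count times 1 constant per library, and the deposited log2 values are regularized log2 counts, per the file names.

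The counts were filtered (filterByExpr, minimum count 10), which kept 14330 of 17230 genes, scaled by TMM and tested in edgeR 4.0.16 under R 4.3.3 (quasi-likelihood F test, robust dispersions, Benjamini-Hochberg over all tested genes, threshold 0.05). SE is the absolute log2 fold change over the square root of F, with 2 residual degrees of freedom before sharing across genes. The test was repeated with eGFP or Cxcl12 reads as library size. Alternatives were RLE, upper-quartile, library-total and CAR-marker scaling, limma-voom, DESeq2 1.42.0, limma-trend on log2 of the deposited signal plus 1 (limma 3.58.1), other filters (none, or a minimum count of 50), non-robust dispersions, a threshold of 0.10 and each library left out. The fits were tested on simulated data.

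The 9 factors and the lists were chosen with earlier results of these data known. The text names all factors, relatives with at least 10 reads in all, the 4 partners and 4 targets of smallest p that passed, the 3 nearest profiles of Runx2 and Sp7 (mean log2 CPM at least 3) and opposite-strand overlaps. Some genes that this rule names are not reported here. Zbtb16, Twist1, Smurf1 and Smurf2 were named after their values were seen. Marker lists were summed only to describe the libraries. Of 207 listed genes, 4 matched by an older symbol and 6 had no row. Replicates of a group differed beyond sampling noise (chi-square per degree of freedom 65.5 in Hes1-derived and 108 in Fgfr3-derived).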

Additional observations from a re-analysis of the deposited data

How the results depend on the processing

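No paired analysis was possible because the groups share replicate number 3 alone. No factor's log2 fold change turned positive under any alternative. With CAR-marker scaling the median of the partners moved to 0.02 (−0.71 in the main test) and that of all tested genes to 0.61 (−0.02). Higher calls then outnumbered lower ones. They also did so with library totals alone (917 higher and 899 lower), and without Hes1-derived replicate 3 or Fgfr3-derived replicate 3. Sp7 and Sp6 passed under every alternative of the TMM comparison, and 7 factors fell in the main test.

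With CAR-marker scaling, 3 factors were called lower, among them Alx1, which entered the test through its Fgfr3-derived reads alone. The other counts called lower were 3 partners, 3 targets and 198 of all tested genes (940 in the main test). The counts called higher were 1 partner, 1 target and 1585 of all (751). With DESeq2 they were 2 relatives, 22 targets and 1557 of all lower, and 1 partner and 1429 of all higher. With limma-voom or non-robust dispersions 2 relatives were lower. At a threshold of 0.10, 5 relatives, 21 targets and 1664 of all were lower, and 1 partner and 1411 of all higher. Relative to eGFP, DESeq2, limma-voom and the 0.10 threshold each called 2 factors lower, Sp6 and Alx1. The call of Alx1 is no support, since it entered through its Fgfr3-derived reads alone. Without Msx2 and Alx1, an alternative chosen after seeing the data, 0 factors were lower relative to eGFP and 1 (Sp6) relative to Cxcl12. The split over all genes was 19 lower and 324 higher relative to eGFP, and 98 and 928 relative to Cxcl12.

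With 1 library left out, the ranges called lower were 3 to 9 factors, 0 to 2 relatives, 4 to 17 partners, 5 to 13 targets and 181 to 998 of all, and called higher 0 to 1 relatives, 0 to 1 partners and 183 to 1225 of all. Relative to eGFP and to Cxcl12 each range was 0 to 2 factors lower. The 9 came without Hes1-derived replicate 1 and the 3 without Hes1-derived replicate 3 or Fgfr3-derived replicate 2. The cause of these shifts was not tested. The counts of factors include Alx1 and Msx2, which passed the filter of the main test through the Fgfr3-derived libraries alone. Alx1 and Msx2 were not tested at a minimum count of 50. Depth limits Msx2, Alx1 and Dlx3 most, with few reads in Hes1-derived libraries. Dlx6 had 135 and 39 reads there, and its level differed between these libraries (5.94 and 1.57 CPM).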
